A study of Mus musculus with 28 samples.

Results

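The genes described here handle retinoids, the vitamin A compounds that end in retinoic acid. They are Cyp26a1, Stra6, Rbp4, Crabp1, Rdh10, Dhrs3, Rara, Rarb and Rarg, and every array probe annotated to 1 of these 9 gene symbols, of 19057 on the array, was included. They have 16 of the 45281 probes on the array, and 11 of these were among the 18471 probes that passed the detection filter (detection p under 0.01 on at least 3 arrays). Cyp26a1 and Stra6 were chosen by their measured changes with Nodal and Cripto, which ran in opposite directions on these arrays. Their values are therefore given as a description with standard errors and without p-values.

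RNA was taken after 96 h from Xen-eyfp cells, a mouse line of extraembryonic endoderm stem cells (XEN cells), the cultured counterpart of the primitive endoderm of the blastocyst. There were 5 arrays of cells given 50 ng/ml Nodal and 5 of cells given 100 ng/ml Cripto. A further 3 were of cells given 50 ng/ml Nodal and SB431542, and 5 of cells given 100 ng/ml Cripto and SB431542. The remaining groups were 5 arrays of SB431542 without a ligand and 5 of Media. Nodal belongs to the TGF-beta growth factors and acts on activin-type receptors, Cripto is its co-receptor, added here to the medium, and SB431542 inhibits the kinase of the activin and Nodal type I receptors. The labels do not give the dose of SB431542 or say whether arrays of a group came from different cultures. The p-values therefore measure only how these samples spread, which may be technical. All 28 arrays are of this 1 line.

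Retinol travels in blood bound to Rbp4, a carrier that the liver and the visceral endoderm secrete together with Ttr. The membrane receptor Stra6 takes retinol from Rbp4 into the cell. Rdh10 oxidises retinol to retinaldehyde, Dhrs3 turns retinaldehyde back into retinol, and the Aldh1a enzymes make retinoic acid. In the cytoplasm Crabp1 binds retinoic acid, and Cyp26a1, a cytochrome P450, oxidises it to forms that are broken down. In the nucleus the receptors Rara, Rarb and Rarg pair with retinoid X receptors on DNA, typically on a direct repeat of a 6-base site, and Cyp26a1 and Rarb are well-known direct targets of retinoic acid.

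The promoters of Cyp26a1 and Rarb are shown because they were the only member promoters that held such a repeat with a spacer of 5 bases, and because these genes changed in opposite directions under Nodal. Each line gives the 100 bases just before the transcription start, read 5′ to 3′ along the gene, from RefSeq on GRCm38.p6, with the repeat in capitals.
Cyp26a1, chr19:37697708-37697807, plus strand: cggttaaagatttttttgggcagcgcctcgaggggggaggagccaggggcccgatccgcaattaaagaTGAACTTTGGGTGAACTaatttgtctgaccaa
Rarb, chr14:16575477-16575576, minus strand: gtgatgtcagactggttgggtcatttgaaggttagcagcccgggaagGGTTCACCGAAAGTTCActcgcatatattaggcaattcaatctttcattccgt
The repeat of Cyp26a1 ended 15 bases before the start and lay on the opposite strand, where it reads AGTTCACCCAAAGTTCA. That of Rarb ended 36 bases before the start. The site searched was AGGTCA or, as allowed variants, AGTTCA or the form GGGTCA or the form GGTTCA. A repeat was a site, 5 bases and a site again in the same direction, on either strand, in windows of 300 bases (250 before and 50 after each start). Windows were found for 8 of the 9 genes (not Rdh10), and 2 of their 18 windows held the repeat, against 32 of all 32851 windows (0.0974%). A match is a description of the letters and not evidence of receptor binding.

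Mean array signal ranged from 183.8 to 995, and 13191 to 16183 probes were detected per array. Levels below are normalised log2 signals, and a probe is called detected on an array where its detection p was under 0.01. Where arrays of groups are said to be separate or not to overlap, the share of all probes that did the same was not counted. No 2 arrays held identical values. Nodal replicate 1 stood apart from the other Nodal arrays, with a median correlation of 0.900 with them, and values without it are given where it changes a call or moves a difference clearly. Of 11 primitive endoderm markers on the array (such as Gata4, Gata6, Sox17 and Pdgfra), 11 were detected on all 28 arrays. No array detected any of 7 fibroblast feeder markers, 4 of 7 epiblast markers or 5 of 7 trophoblast markers. Pou5f1, an epiblast marker, was detected on 26 arrays and averaged 6.50 with Nodal, 6.46 with Cripto and 7.24 in Media, and limma called it lower in both comparisons. Zfp42, another, was detected on 21 arrays and averaged 6.55 with Nodal, 6.73 with Cripto and 6.02 in Media, and was called higher in both. The trophoblast marker Cdx2, also a gene of embryonic gut, was detected on 5 of 5 Cripto arrays and 5 of 5 arrays of Cripto with SB431542, and on none of the other 18. Summed trophoblast marker levels were 214 to 276 with Cripto, 261 to 358 with Cripto and SB431542, 171 to 209 with SB431542 and 173 to 229 in Media, on the linear scale. Summed primitive endoderm marker levels also differed, at 142337 to 182238 with Nodal, 134115 to 152844 with Cripto and 182344 to 201637 in Media. They were 214989 to 224631 with Nodal and SB431542, above the 180454 to 210200 with SB431542 alone. The brightest markers weigh most in these linear sums. In Media the log2 means of Lama1, Lamc1 and Col4a1 were 15.55, 15.49 and 15.24, and that of Gata4 was 9.05. The sums were not adjusted for BeadChip. Taken singly, limma called 6 of the 11 lower and 1 higher with Nodal, and 7 lower with Cripto, against Media. Gata6 averaged 13.35 with Nodal, 13.25 with Cripto and 13.32 in Media. For Nodal with SB431542 against SB431542 alone limma called none of the 11, and Lamb1 averaged 14.45 against 13.09. The part of these differences in the results below was not tested. In RNA from whole cultures, fewer cells of a type and less RNA per cell cannot be told apart.

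The 7 genes other than Cyp26a1 and Stra6 had 8 tested probes, none of them of Dhrs3. Of these, limma called 5 at an adjusted p under 0.05 for Nodal against Media, 1 higher and 4 lower. The 4 lower were the tested probes of Rarb and Rarg. The same comparison called 55.4% of all tested probes, 28.5% higher and 27% lower, so the share called is near the background. For Cripto against Media 5 were called, 3 higher and 2 lower, where 62.3% of all probes were called, 32.4% higher and 29.9% lower. For Cripto with SB431542 against SB431542 alone 3 were called, 1 higher and 2 lower. Of all probes 63.9% were called in that comparison, 32.7% higher and 31.2% lower. The Rbp4 probe was among those called higher in each of these comparisons. It passed the detection filter only through the groups in which it was high. The Rdh10 and Rara probes, also called higher for Cripto against Media, passed it only through the groups with Cripto. For Nodal with SB431542 against SB431542 alone 1 probe, that of Crabp1, was called higher, where 3.65% of all probes were called, 2.99% higher. The Crabp1 probe passed the detection filter only through Nodal with SB431542. That background of 675 probes was unsteady, at 0 to 1153 with 1 array left out, 8 without the BeadChip term and 146 with median centring of each array. For SB431542 against Media limma called none of them, and none had an unadjusted p under 0.05. Over all probes that comparison called 0, with 606 at an unadjusted p under 0.05. The 2 comparisons with Media share the Media arrays, so they are not independent of each other.

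**Figure D1:**
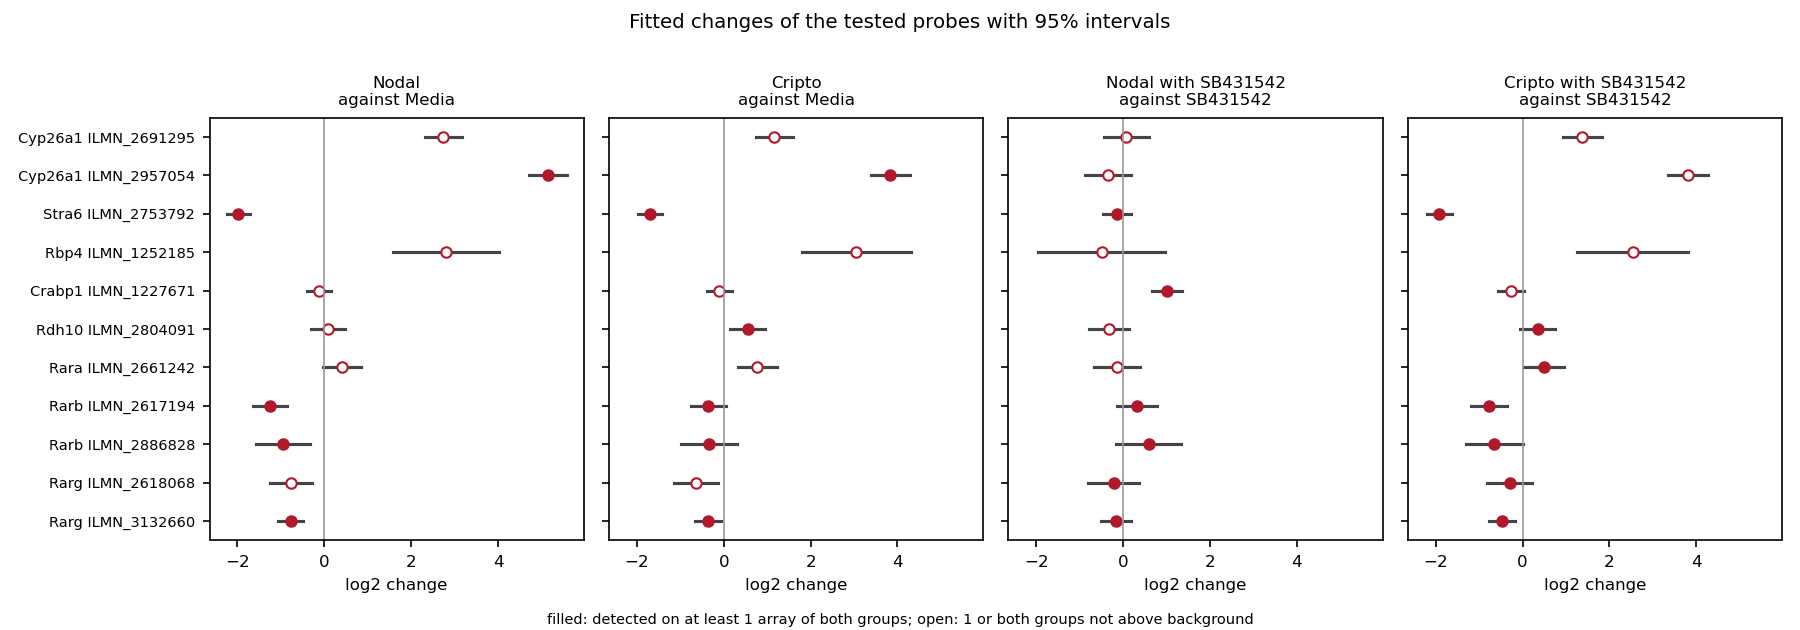
Fitted log2 changes with 95% intervals for each tested probe of the retinoid genes in 4 comparisons, each of a ligand group minus its reference without ligand. Filled points were detected on at least 1 array of both groups, and open points were not above background in 1 or both groups. Cyp26a1 lies at the right (5.14 for Nodal against Media) and Stra6 at the left (-1.98) in the comparisons of Nodal and Cripto with Media and of Cripto with SB431542 against SB431542.

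On the brighter of its tested probes Cyp26a1, which oxidises retinoic acid, was high with Nodal alone and with Cripto with or without the inhibitor. This held for every array of these groups, and the others were near background. Its brighter probe (ILMN_2957054) had log2 levels of 9.64, 10.60, 10.68, 10.83 and 10.73 with Nodal and of 8.98, 9.07, 9.24, 9.37 and 9.30 with Cripto. Cripto with SB431542 gave 9.38, 8.99, 9.16, 9.35 and 9.73. The other 3 groups lay far below and did not overlap with these. Nodal with SB431542 had 4.66, 5.08 and 5.03, and SB431542 alone had 5.07, 5.47, 5.27, 5.67 and 5.53, all not detected. Media had 5.71, 6.06, 4.88, 4.82 and 5.29, with only the 6.06 of replicate 2 detected.

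The fitted difference for Nodal minus Media was 5.14 ± 0.21 on the log2 scale (SE, as for all differences below) and ranked 7 of 18471 from the highest increase. For Cripto minus Media it was 3.83 ± 0.22 and ranked 37. On the 5 BeadChips (slides of several arrays) that held both Nodal and Media the difference was 3.93 to 6.01, and on the 4 with both Cripto and Media it was 3.0 to 4.55. Because Media was detected on only 1 array, these sizes depend on how background was removed, and no fold is given. Nodal minus Media was 3.28 without background correction, 4.29 with an offset of 50 in place of 16 and 2.65 on the deposited values. Under the same settings Cripto minus Media was 2.12, 3.02 and 1.58. Without Nodal replicate 1, the lowest of its group, Nodal minus Media was 5.32.

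With SB431542, Cyp26a1 stayed high under Cripto and lay at background under Nodal. Cripto with SB431542 stood at least 11.1-fold above SB431542 alone, with a fitted difference of 3.81 ± 0.22. It differed from Cripto alone by 0.04 ± 0.22, and the arrays of both groups overlapped. Nodal with SB431542 lay at least 28.2-fold below Nodal alone (-5.43 ± 0.26). These bounds set the brighter group against the lowest signal that was above background on each array of the dimmer group, and hold for this background correction and offset. Without background correction, with an offset of 50 and on the deposited values the differences were 2.15, 3.06 and 1.62 for Cripto with SB431542 minus SB431542, and -3.33, -4.40 and -2.65 for Nodal with SB431542 minus Nodal. The interaction, which is the change with ligand under inhibitor minus the change with ligand without it, was -5.49 ± 0.33 for Nodal and -0.02 ± 0.31 for Cripto. Every Nodal array lay above every Cripto array, with a difference of 1.31 ± 0.22 and 0.66 to 1.53 within the 4 BeadChips that held both. The ligand doses differ, at 50 and 100 ng/ml.

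The other Cyp26a1 probe (ILMN_2691295) was dimmer and gave the same order for the ligands. It had 6.71, 7.33, 7.45, 7.89 and 8.14 with Nodal, and 6.06, 6.22, 5.89, 6.56 and 6.48 with Cripto and SB431542, all detected. With Cripto alone it had 5.68, 5.16, 5.43, 6.36 and 6.67, of which only 6.36 and 6.67 were detected. It was detected on no array of Nodal with SB431542, SB431542 or Media. Nodal minus Media was 2.74 ± 0.20, at least 3.18-fold, and Cripto minus Media was 1.17 ± 0.21, at least 1.02-fold.

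**Figure D2:**
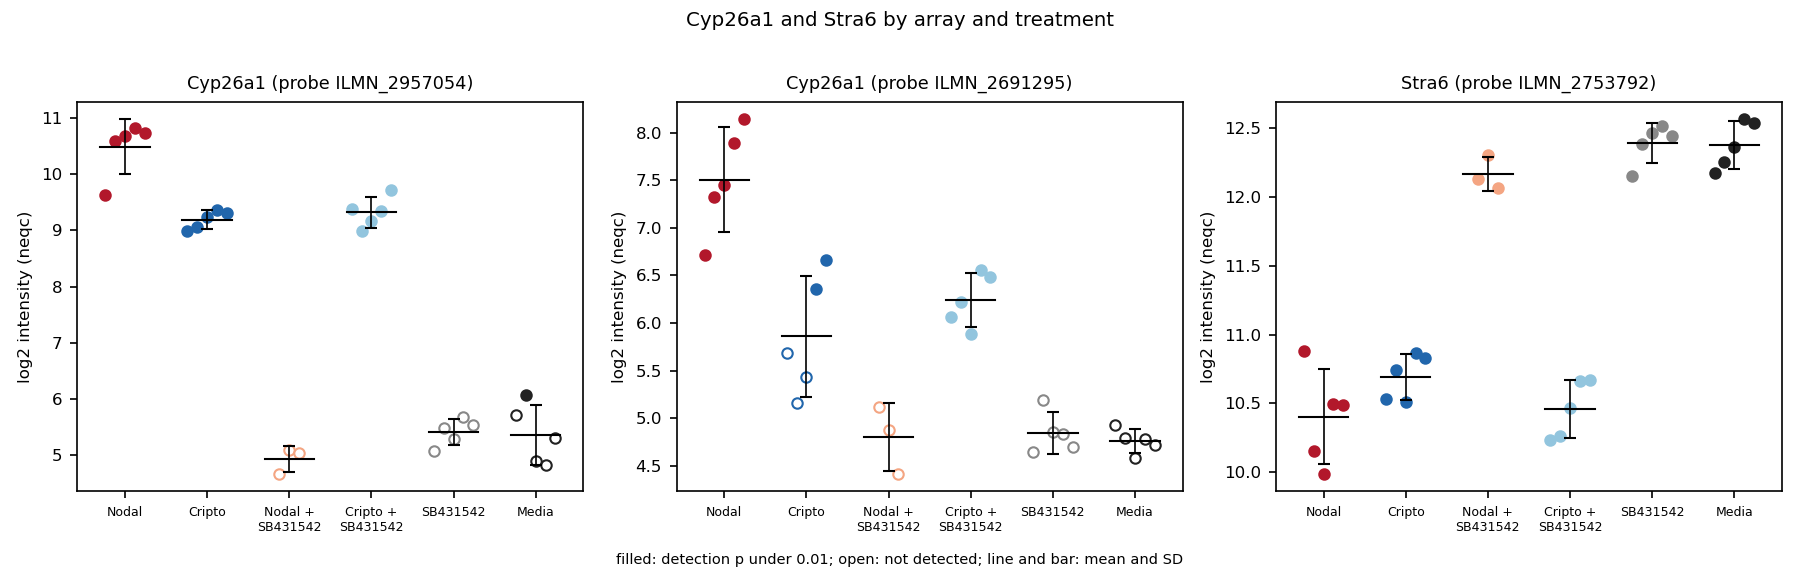
Log2 level of Cyp26a1 (both tested probes) and Stra6 on each of the 28 arrays, by group, with bars for the mean and SD; filled points were detected and open points were not. The brighter Cyp26a1 probe is high and Stra6 low with Nodal, with Cripto and with Cripto and SB431542, and the reverse holds in the other 3 groups. The dimmer Cyp26a1 probe was detected on only 2 of 5 Cripto arrays. Its lowest Cripto level (5.16) lies below its highest SB431542 level (5.20).

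Stra6, the retinol uptake receptor, was detected on all 28 arrays by 1 probe (ILMN_2753792) and fell into the same separate groups of arrays, in the opposite direction. Its log2 levels were 10.88, 10.15, 9.99, 10.50 and 10.49 with Nodal and 10.53, 10.74, 10.51, 10.87 and 10.83 with Cripto. Cripto with SB431542 gave 10.24, 10.26, 10.46, 10.66 and 10.67. These 15 arrays all lay below the other 13. Nodal with SB431542 had 12.13, 12.30 and 12.06, SB431542 alone had 12.15, 12.39, 12.47, 12.52 and 12.44, and Media had 12.17, 12.25, 12.36, 12.56 and 12.54.

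Nodal minus Media was -1.98 ± 0.13, a 3.93-fold lower level, and Cripto minus Media was -1.69 ± 0.13. These differences ranked 388 and 840 of 18471 from the largest decrease. Cripto with SB431542 minus SB431542 was -1.92 ± 0.14. On single BeadChips the difference was -2.37 to -1.29 for Nodal against Media and -1.71 to -1.52 for Cripto against Media. Nodal with SB431542 lay 1.84 ± 0.16 above Nodal alone. It differed from SB431542 alone by -0.14 ± 0.16, and SB431542 differed from Media by 0.00 ± 0.14. Nodal minus Cripto was -0.28 ± 0.13, and the arrays of these groups overlapped through Nodal replicate 1. Without that array the difference was -0.46 and every Nodal array lay below every Cripto array. Within BeadChips it was 0.35 on BeadChip 1, which holds that array, and -0.58 to -0.34 on the other 3. Median centring of each array, instead of quantile normalisation, gave smaller differences, of -1.44 for Nodal and -1.15 for Cripto against Media. That scaling moved the median of all probes to 0.42 and 0.44. Another Stra6 probe (ILMN_1215912) was detected on none of the 28 arrays.

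Over the 28 arrays, with BeadChip differences removed, Cyp26a1 and Stra6 had a Pearson correlation of -0.974. This describes a pair chosen for opposite changes, over points that share groups and BeadChips. The genes whose pattern was most like that of Cyp26a1 were Ctsh (r = 0.989), Apoe (0.987), Rab15 (0.986), Flt1 (0.985) and Rdm1 (0.984). Their Nodal minus Media differences were 2.81, 4.10, 2.95, 3.89 and 2.50. Those most like Stra6 were Selenon (0.990), Plagl2 (0.988), Atp4b (0.988), Gata3 (0.987) and Ccdc84 (0.987), with differences of -1.29, -1.96, -4.21, -4.02 and -2.04. Flt1 is a receptor of vascular endothelial growth factor, Apoe a lipid carrier of blood and Gata3 a transcription factor.

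Rbp4, the retinol carrier of blood, rose with Nodal and with Cripto, but by amounts that differed between BeadChips. Its log2 levels were 4.94, 9.75, 9.81, 6.84 and 6.82 with Nodal, and only the 4.94 of replicate 1 was not detected. With Cripto they were 8.86, 9.13, 8.90, 5.76 and 6.50, and only the 5.76 of replicate 4 was not detected. Cripto with SB431542 gave 8.82, 8.46, 8.19, 6.61 and 6.44, all detected. Nodal with SB431542 (4.61 to 4.93), SB431542 alone (4.58 to 5.39) and Media (4.55 to 5.26) had no array with a detected value. Rbp4 therefore passed the detection filter only through the groups in which it was high, and its calls are not independent of that filter.

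In the limma fit Rbp4 was higher by 2.80 ± 0.58 with Nodal than in Media (adjusted p = 0.000386), at least 3.48-fold. With Cripto it was higher by 3.06 ± 0.60 than in Media (adjusted p = 0.000157), at least 3.99-fold. With Cripto and SB431542 it was higher by 2.54 ± 0.61 than with SB431542 alone (adjusted p = 0.00119), at least 3.63-fold. It was lower in Nodal with SB431542 than in Nodal alone by -3.17 ± 0.72 (adjusted p = 0.00102). The interaction of Nodal and SB431542 was -3.30 ± 0.91 (adjusted p = 0.00647), and -2.86 (adjusted p = 0.0569) in a fit without the BeadChip.

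The detected Rbp4 levels on BeadChips 1 to 4 were 8.19 or more, and those on BeadChips 5 to 7 were 6.84 or less. Fits on the 2 sets of BeadChips, a split chosen after seeing the data, gave for Nodal against Media 3.17 (adjusted p = 0.00518) on BeadChips 1 to 4 and 2.25 (adjusted p = 0.000925) on BeadChips 5 to 7. For Cripto against Media they gave 4.14 (adjusted p = 0.000809) and 1.55 (adjusted p = 0.00219). Within single BeadChips Nodal minus Media was -0.32 on BeadChip 1, which holds Nodal replicate 1, and 2.22 to 5.05 on the other 4. Without that replicate the difference was 3.58 (adjusted p = 7.91e-07). Nodal with SB431542 minus Nodal was then -4.16, and the interaction of Nodal and SB431542 was -4.19.

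**Figure D3:**
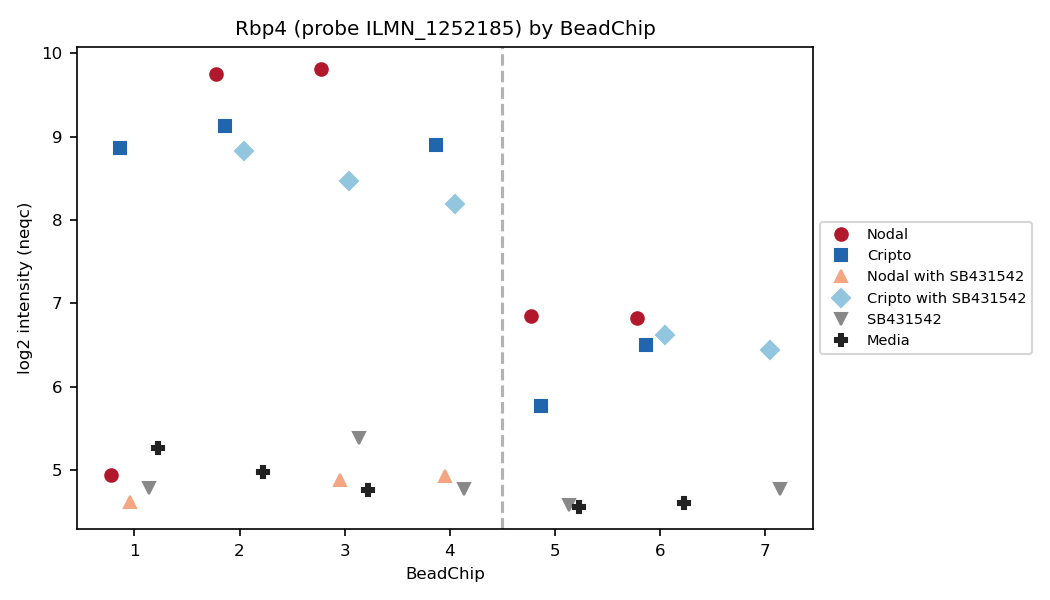
Log2 level of Rbp4 on each array by BeadChip, with the group given by colour and marker shape. Points are filled whether or not they were detected. Among the arrays of Nodal, of Cripto and of Cripto with SB431542, those detected on BeadChips 1 to 4 lie between 8.19 and 9.81 and those on BeadChips 5 to 7 between 6.44 and 6.84, except that Nodal replicate 1 on BeadChip 1 (4.94) and Cripto replicate 4 on BeadChip 5 (5.76) were not detected.

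Crabp1, the cytoplasmic binding protein of retinoic acid, was detected on all 3 arrays of Nodal with SB431542, at 6.07, 6.33 and 5.81. Of the other 25 arrays, 1 detected it, SB431542 replicate 2 at 5.81. The other SB431542 arrays were at 4.56 to 4.95, so the groups met at 5.81. Nodal alone had 4.50 to 4.99, Cripto 4.49 to 4.87, Cripto with SB431542 4.50 to 4.76 and Media 4.70 to 5.03, all not detected. The probe thus passed the detection filter only through Nodal with SB431542, the group in which it was high. The calls below are therefore not independent of that filter.

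Crabp1 was higher in Nodal with SB431542 than in SB431542 alone by 1.01 ± 0.16 (limma adjusted p = 0.0106), and by 0.52 to 1.12 within the 3 BeadChips that held both. The adjusted p was 0.104, 0.0759 and 0.0555 without replicate 1, 2 and 3 of Nodal with SB431542, and 0.0517 without SB431542 replicate 3. The summed primitive endoderm markers, given above, were also higher in Nodal with SB431542 than in SB431542 alone. Singly, limma called 0 of the 11 in this comparison, with a median change of 0.08. The part of the markers in the Crabp1 result was not tested. Against Nodal alone Crabp1 was higher by 1.20 ± 0.17 (adjusted p = 5.50e-06), at least 1.18-fold, where 52.4% of all probes were called. The interaction of Nodal and SB431542 was 1.14 ± 0.21 (adjusted p = 0.000224), where 42% of all probes were called.

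Of the enzymes between retinol and retinaldehyde, Rdh10 was near background throughout and Dhrs3 had no detected probe. Rdh10 (ILMN_2804091) had 5.69, 5.90, 5.93, 5.77 and 5.78 with Cripto, where the 5.90 and 5.93 were detected, against 5.79, 4.82, 5.39, 4.94 and 5.58 in Media, where the 5.79 was detected. The groups overlapped by that 1 Media array. Rdh10 was also detected on 2 arrays of Cripto with SB431542 and 1 of SB431542. The probe thus passed the detection filter only through the groups with Cripto, where its means were highest. The call below is therefore not independent of that filter. Rdh10 was higher with Cripto than in Media by 0.55 ± 0.19 (limma adjusted p = 0.0162). The adjusted p was 0.0648 without Media replicate 2 and 0.0559 without Cripto replicate 2, and it was 0.0754 and 0.134 on BeadChips 1 to 4 and 5 to 7. Nodal minus Media was 0.09 (adjusted p = 0.699), and Cripto with SB431542 minus SB431542 was 0.35 (adjusted p = 0.129, and 0.0273 without replicate 4 of Cripto with SB431542). The 2 probes of Dhrs3 were detected on 0 of 28 arrays.

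The retinoic acid receptors differed from each other. Rarb, the receptor whose promoter is shown above, was lower with Nodal on both tested probes. The brighter probe (ILMN_2617194) had 5.53, 6.91, 6.84, 7.31 and 6.88 with Nodal, where the 5.53 of replicate 1 was not detected. With Cripto it had 6.96, 8.08, 7.69, 8.02 and 7.24. Nodal with SB431542 had 8.07, 8.11 and 8.21, Cripto with SB431542 had 7.53, 7.37, 7.06, 7.27 and 7.27, and SB431542 alone had 7.65, 7.70, 8.05, 8.30 and 8.33. Media had 7.87, 7.75, 7.72, 8.18 and 8.19, above every Nodal array and overlapping with Cripto.

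Rarb was lower with Nodal than in Media by -1.25 ± 0.19 (limma adjusted p = 1.06e-05), on 5 of 5 BeadChips. Without Nodal replicate 1 the difference was -1.04 (adjusted p = 1.32e-05). Nodal with SB431542 was higher than Nodal alone by 1.65 ± 0.23 (adjusted p = 5.93e-06), and the interaction was 1.57 ± 0.29 (adjusted p = 0.000241). Without Nodal replicate 1 these values were 1.39 and 1.32. Cripto minus Media was -0.35 ± 0.19 and was not called (adjusted p = 0.115). It became 0.0401 without Nodal replicate 1 and 0.0379 without Media replicate 2, and the sign turned to 0.18 with median centring. Cripto with SB431542 was lower than SB431542 alone by -0.78 ± 0.20 (adjusted p = 0.00178), and by -0.39 with median centring (adjusted p = 0.228). Rarb was lower with Nodal than with Cripto by -0.89 ± 0.19 (adjusted p = 0.00226), where 20.4% of all probes were called, 10.2% lower. On BeadChips 5 to 7 that difference was -0.54 (adjusted p = 0.181), and without Nodal replicate 1 it was -0.67 (adjusted p = 0.00476).

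The other Rarb probe (ILMN_2886828) had 5.36, 6.49, 6.60, 6.94 and 6.89 with Nodal, where the 5.36 of replicate 1 was not detected, against 7.67, 6.91, 7.03, 7.46 and 7.94 in Media. The groups overlapped slightly. Nodal minus Media was -0.95 ± 0.30 (limma adjusted p = 0.0108). It was -0.73 without Nodal replicate 1 (adjusted p = 0.0442), -0.48 with median centring (adjusted p = 0.213), and had an adjusted p of 0.0644 on BeadChips 1 to 4 and 0.0550 on BeadChips 5 to 7. Nodal with SB431542 (7.91, 7.12 and 7.81) was higher than Nodal alone by 1.34 ± 0.37 (adjusted p = 0.00472, and 0.0680 without replicate 1 of Nodal with SB431542). The interaction was 1.54 ± 0.47 (adjusted p = 0.0120, but 0.0659 without that replicate and 0.0787 under median centring). Without Nodal replicate 1 the difference from Nodal alone was 1.07 and the interaction was 1.29. With Cripto the probe had 5.68, 7.90, 7.33, 7.07 and 7.69, and Cripto minus Media was -0.34 ± 0.31 (adjusted p = 0.350; 0.15 with median centring). Nodal minus Cripto was -0.61 ± 0.31 and was not called on this probe (adjusted p = 0.175; -0.39 with 0.420 without Nodal replicate 1, and -0.93 with 0.0256 without Cripto replicate 1). Cripto with SB431542 minus SB431542 was -0.65 ± 0.32 (adjusted p = 0.0773, but 0.0426 without Media replicate 1 or 2 and 0.0265 without SB431542 replicate 4). A further Rarb probe (ILMN_1246864) was not detected on any array.

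Rarg, the receptor gamma, was dim and lower with Nodal. Probe ILMN_3132660 had 5.39, 5.70, 5.54, 5.40 and 5.82 with Nodal, where only the 5.70 was detected, against 6.28, 6.05, 6.53, 6.30 and 6.53 in Media, all detected. The groups did not overlap. With Cripto it had 5.94, 5.98, 5.75, 5.74 and 6.17, and with Nodal and SB431542 6.14, 6.34 and 6.23. With Cripto and SB431542 it had 6.08, 5.98, 5.83, 5.89 and 6.53, and with SB431542 alone 6.45, 6.50, 6.08, 6.97 and 6.48.

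Rarg on this probe was lower with Nodal than in Media by -0.77 ± 0.14 (limma adjusted p = 9.28e-05; -0.81 with adjusted p = 0.0855 on BeadChips 5 to 7). It was higher in Nodal with SB431542 than in Nodal alone by 0.79 ± 0.17 (adjusted p = 0.000721). It was lower with Cripto than in Media by -0.37 ± 0.14 (adjusted p = 0.0307). It did not pass 0.05 under median centring (-0.08, adjusted p = 0.654) or without any one of Media replicates 1, 3 and 5 or Cripto replicate 4 (adjusted p up to 0.115), nor on BeadChips 1 to 4 (0.123) or 5 to 7 (0.268). Cripto with SB431542 was lower than SB431542 alone by -0.47 ± 0.15 (adjusted p = 0.00827; -0.21 with adjusted p = 0.221 under median centring, and -0.59 with 0.194 on BeadChips 5 to 7). Nodal minus Cripto was -0.40 ± 0.14 (adjusted p = 0.0512), and it passed 0.05 when any one of 7 arrays was left out, with the lowest adjusted p, 0.0212, without SB431542 replicate 4. It also passed with the BeadChip as a random block (0.0404), with detection on at least 14 arrays (0.0401) and with 1 probe per gene (0.0410). The interaction of Nodal and SB431542 was 0.60 ± 0.22 (adjusted p = 0.0312), and the adjusted p lay above 0.05 when any one of 7 arrays was left out, reaching 0.104 without replicate 3 of Nodal with SB431542. It also lay above 0.05 without background correction (0.136), with median centring (0.0708), with an offset of 50 (0.0678), on the deposited values (0.172), without a detection filter (0.0543) and without the BeadChip term (0.104).

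On the other tested Rarg probe (ILMN_2618068), 0 of 5 Nodal arrays and 0 of 5 Cripto arrays were detected, against 5 of 5 Media arrays. It was lower with Nodal than in Media by -0.77 ± 0.24 (limma adjusted p = 0.00927), at least 1.27-fold, and by -0.58 on BeadChips 1 to 4 (adjusted p = 0.125). With Cripto it was lower than in Media by -0.64 ± 0.24 (adjusted p = 0.0277), at least 1.19-fold. That adjusted p rose above 0.05 without Media replicate 1 or 5 or Cripto replicate 3 or 4, reaching 0.0966 without Cripto replicate 4, and it was 0.125 with median centring and 0.0916 without the BeadChip term. For both Rarg probes it also passed above 0.05 without background correction, on the deposited values and without a detection filter (0.0516 to 0.0868). Probe ILMN_2618068 was not called for Nodal with SB431542 against Nodal, where its differences were -0.40 on BeadChip 1 and 0.28 on BeadChip 3. Nor was it called for Cripto with SB431542 against SB431542 or for the interaction of Nodal and SB431542. Another Rarg probe (ILMN_3055801) was detected on 1 array and not tested.

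**Figure D4:**
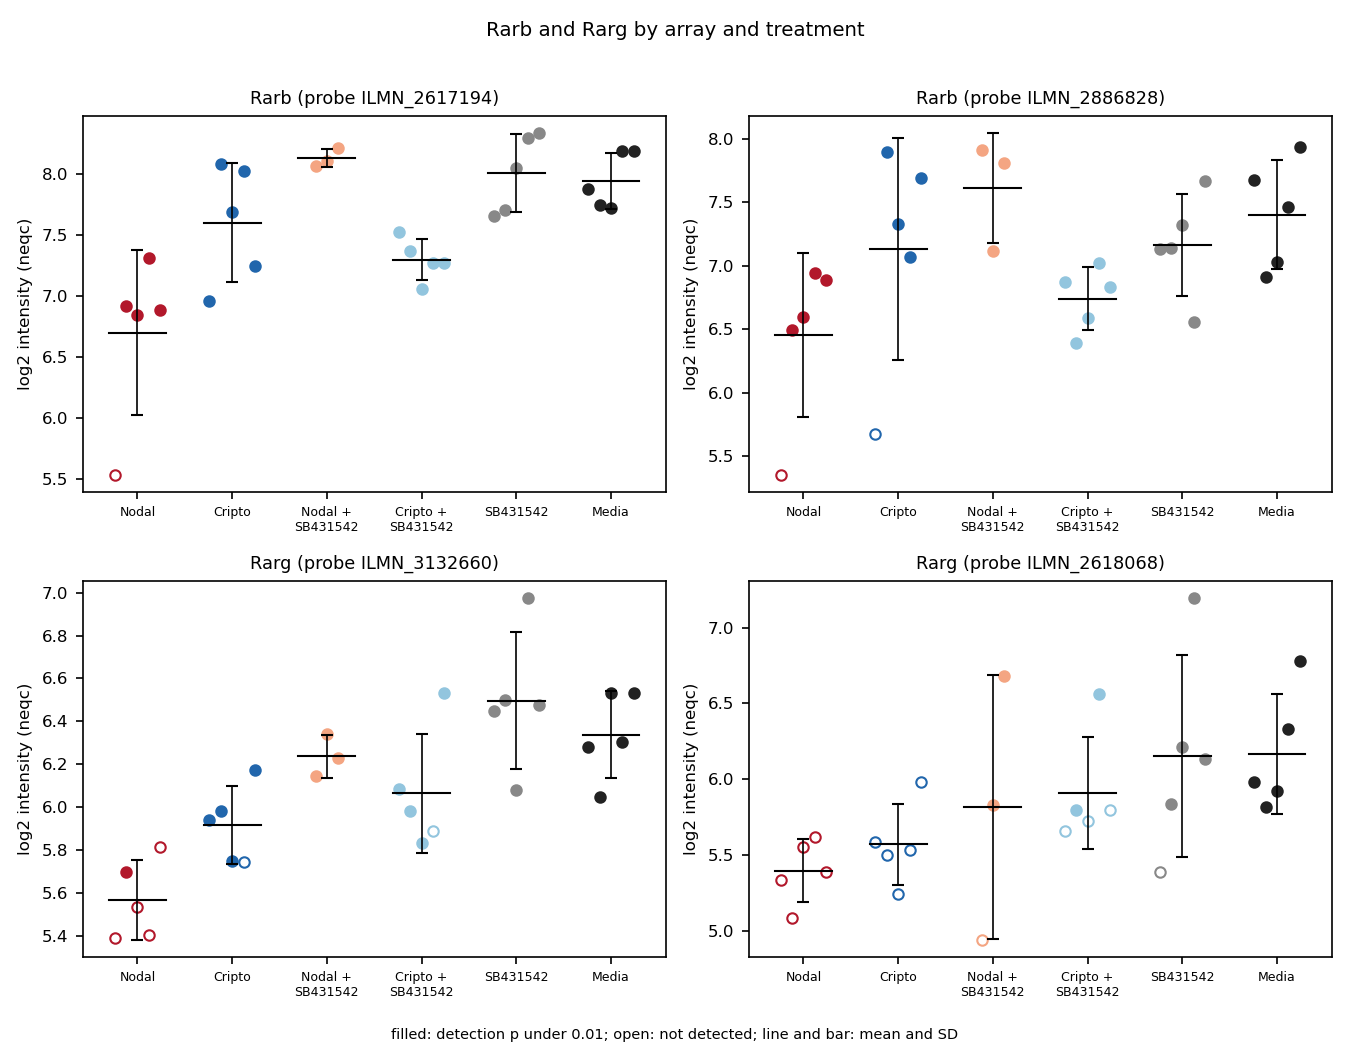
Log2 level of the 2 tested probes each of Rarb and Rarg on every array, by group, with bars for the mean and SD; filled points were detected and open points were not. Nodal arrays are the lowest group of the brighter Rarb probe (5.53 to 7.31, against 7.72 to 8.19 in Media), while Nodal with SB431542 lies at 8.07 to 8.21.

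Rara, the receptor alpha, lay near background and was higher with Cripto. It had 5.23, 5.72, 6.17, 6.78 and 5.85 with Cripto, where the 5.72, 6.17 and 6.78 were detected, against 4.88 to 5.56 in Media, none detected. Only Cripto replicate 1 overlapped with Media. The difference was 0.77 ± 0.22 (limma adjusted p = 0.00409), at least 1.08-fold, and 0.54 (adjusted p = 0.134) on BeadChips 1 to 4. Rara was also detected on 3 of 5 arrays of Cripto with SB431542, 1 Nodal array and 1 SB431542 array. The probe thus passed the detection filter only through the groups with Cripto, where its means were highest. Its calls are therefore not independent of that filter. Nodal minus Media was 0.41 ± 0.21 (adjusted p = 0.106, and 0.56 with adjusted p = 0.0307 without Nodal replicate 1, or 0.52 with adjusted p = 0.0392 under median centring). With Cripto and SB431542 it had 5.94, 5.54, 5.87, 5.51 and 6.22, and the difference from SB431542 alone was 0.49 ± 0.22 (adjusted p = 0.0611). That difference passed 0.05 without any one of Nodal replicates 1, 4 and 5, Cripto replicate 1 or SB431542 replicate 1, with an adjusted p as low as 0.0127, and under median centring (adjusted p = 0.0448). No array of Nodal with SB431542 detected Rara.

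**Figure D5:**
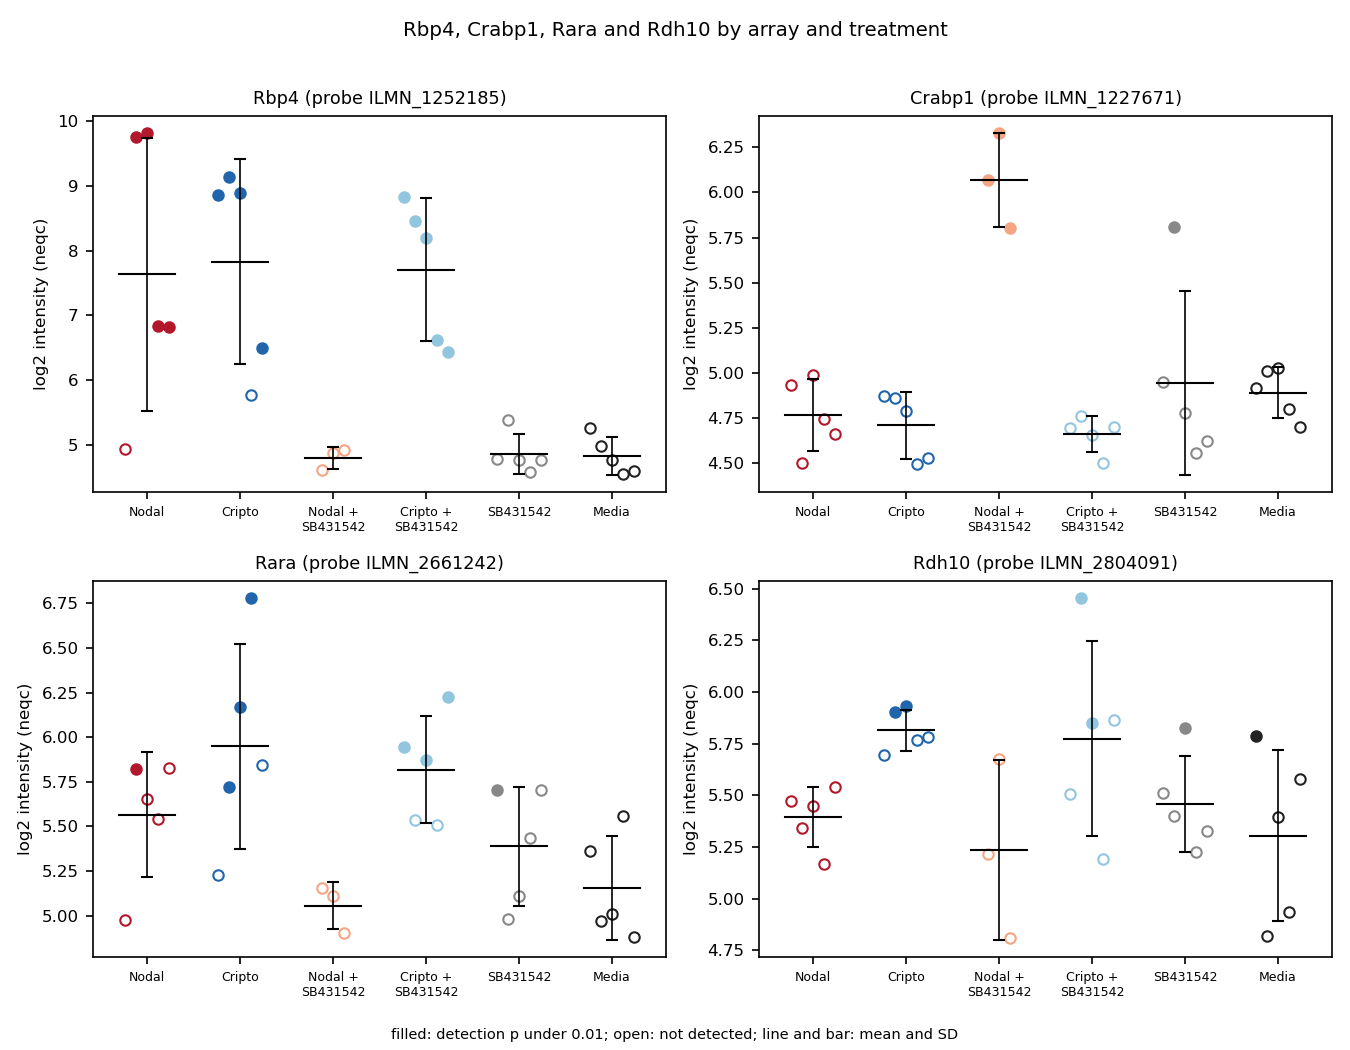
Log2 level of Rbp4, Crabp1, Rara and Rdh10 on each array, by group, with bars for the mean and SD; filled points were detected and open points were not. Rbp4 is detected only with Nodal (4 of 5 arrays), with Cripto (4 of 5) and with Cripto and SB431542 (5 of 5), and Crabp1 on all 3 arrays of Nodal with SB431542 and on 1 array of SB431542.

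SB431542 was also set against each ligand alone for the 8 tested probes of these 7 genes, of which Dhrs3 had none. For Nodal with SB431542 against Nodal alone 5 of 8 were called, 4 higher and 1 lower, where 24.8% of all probes were higher and 27.6% lower. For Cripto with SB431542 against Cripto alone limma called none, with none at an unadjusted p under 0.05, where 7.89% of all probes were called. The interaction of Nodal and SB431542 was called for 5 of the 8, positive for 4 and negative for 1, where 20.2% of all probes were positive and 21.8% negative. That of Cripto and SB431542 was called for 0 by limma, again with none at an unadjusted p under 0.05, where 0.541% of all probes were called.

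Other genes of the retinoid pathway were drawn from lists of 66 carriers, enzymes, receptors with cofactors and targets, of which 58 were on the array and 26 were tested by 1 probe a gene. For Nodal against Media 3 rose and 14 fell, where 28.2% of all genes rose and 28.5% fell. The median change of the 26 was -0.53, against 0.01 for all genes. For Cripto against Media 2 rose and 15 fell, where 31.8% and 32.2% of all genes did, with a median of -0.85. With Cripto and SB431542 against SB431542 alone 3 rose and 16 fell, where 31.5% and 33.5% of all genes did, with a median of -0.60. With Nodal and SB431542 against SB431542 alone limma called none of the 26, where 3.46% of all genes were called. Under median centring the counts were 4 rising and 8 falling for Nodal, and 3 rising and 10 falling for Cripto, against Media, with medians of -0.11 and -0.32. The medians of all probes were then 0.42 and 0.44, and 80.3% and 76.5% of the probes called were higher.

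By role, for Nodal against Media, 1 of 2 tested carriers fell and 4 of 9 synthesis enzymes fell while 1 rose. Of 7 retinoid X receptors and cofactors 5 fell, and of 8 target genes 4 fell and 2 rose. Over all genes 28.5% fell and 28.2% rose in this comparison, and no role was tested against these shares. Under median centring 2 synthesis enzymes fell and 2 rose, 2 receptors and cofactors fell, and 3 targets fell and 2 rose. The carrier that fell was Ttr, the partner of Rbp4 in blood. It averaged 12.92 ± 0.52 with Nodal and 14.11 ± 0.20 in Media (SD, n = 5 each), a difference of -1.19 ± 0.16 (SE; limma adjusted p = 3.38e-06), opposite to Rbp4. Dhrs7, a short-chain dehydrogenase, averaged 12.03 ± 0.16 with Nodal and 13.09 ± 0.08 in Media, and its difference was -1.06 ± 0.09 (SE; limma adjusted p = 2.00e-09). Dhrs4, a retinaldehyde reductase, fell by 1.73 with Nodal and by 1.23 with Cripto against Media. Adh5, an alcohol dehydrogenase, rose by 0.84 with Nodal and 0.97 with Cripto. Under median centring the Nodal differences were -0.76 for Ttr, -0.59 for Dhrs7, -1.20 for Dhrs4 and 1.46 for Adh5, and the Cripto differences of Dhrs4 and Adh5 were -0.71 and 1.61, all still called.

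Of the 8 tested retinoic acid targets, 4 fell and 2 rose with Nodal, and 5 fell and 1 rose with Cripto, against Media. Of all genes 28.5% fell and 28.2% rose with Nodal, and 32.2% fell and 31.8% rose with Cripto. With Cripto and SB431542 against SB431542 alone 5 fell and 2 rose, where 33.5% and 31.5% of all genes did. The targets were not tested against these shares, and only targets that fell are named here. Among those that fell, Zfp703, a transcriptional repressor, averaged 8.16 ± 0.29 with Nodal, 7.72 ± 0.40 with Cripto and 10.29 ± 0.23 in Media (SD, n = 5 each). Its differences from Media were -2.13 ± 0.13 and -2.59 ± 0.13 (SE; limma adjusted p = 2.85e-11 and 1.46e-12). Hoxa5, a homeobox gene, was detected on 1 of 5 Nodal arrays, 0 of 5 Cripto arrays and 5 of 5 Media arrays, and fell at least 1.90-fold with Cripto. The homeobox gene Meis2 fell by 1.18 with Nodal and 0.85 with Cripto on the log2 scale. Under median centring it was -0.57 with Nodal, still called, and -0.23 with Cripto, not called. From the list of receptors and cofactors, Nr2f2, an orphan nuclear receptor, was detected on 0 of 5 Nodal arrays and 4 of 5 Media arrays. It fell at least 1.67-fold with Nodal. Of the 32 list genes that were not tested, 25 were detected on no array. The Aldh1a enzymes were among the 32: Aldh1a1 and Aldh1a3 were detected on 0 arrays and Aldh1a2 on 2. Crabp2, which delivers retinoic acid to receptors, Lrat, which esterifies retinol, and Cyp26b1, a relative of Cyp26a1, were detected on 0 arrays.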

How the data were processed

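RNA (200 ng, per the labels' protocols) was hybridised to Illumina mouse BeadChips. The deposited per-array files hold bead-averaged signal intensity, not scaled or background-subtracted by the authors as far as the values show, and a detection p-value against negative control beads, per the file headers. A deposited table of the same arrays appears to be on a log2 scale, with its transformation not stated. BeadStudio and lumi are named in the submitters' processing notes, with no versions.

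Intensities were background-corrected from the detection p-values, quantile normalised with an offset of 16 and log2 transformed (neqc, limma 3.58.1, R 4.3.3). Probes detected (p under 0.01) on at least 3 of 28 arrays were fitted with limma on group and BeadChip (7 slides), over all 6 groups, with Benjamini-Hochberg adjustment over all 18471 probes of a comparison and calls at 0.05, two-sided. The script was tested on simulated data. Of all probes, 34885 had 1 gene symbol, 18 several and 10378 none; for 9951 genes the probe with the highest mean stood for the gene. The number of arrays limits the precision. Groups come from the treatment labels, and BeadChips from the array titles.

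All member probes are accounted for. Pathway genes are named where called in Nodal or Cripto against Media or in Cripto with SB431542 against SB431542, and like patterns as the 5 genes with the highest Pearson correlation. Members and lists were chosen with earlier results of these data known. Alternatives changed the background correction, offset, scaling, detection filter, BeadChip term, probes per gene, values (those of the deposited table) and arrays. Plots used matplotlib 3.10.9 in Python 3.11.15.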

Additional observations from a re-analysis of the deposited data

Results flagged for a closer look

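Within groups of 5 arrays, 5 of the 55 sets of values examined held 1 array that stood apart from the nearest other by Dixon's test, which chance alone gives in about 1 in 20 sets. Nodal replicate 1 was the lowest for Cyp26a1 (ILMN_2957054), at 9.64 with the nearest at 10.60, and for both Rarb probes, at 5.53 (nearest 6.84) on ILMN_2617194 and 5.36 (nearest 6.49) on ILMN_2886828. SB431542 replicate 2 was the highest for Rbp4, at 5.39 (nearest 4.78), where no SB431542 array was detected. Cripto with SB431542 replicate 4 was the highest for Rarg (ILMN_2618068), at 6.56 (nearest 5.80).

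The change with Nodal under SB431542 differed from that without it, by the interaction term of the limma fit, for 5 probes: Rbp4 (-3.30), Crabp1 (1.14), Rarb (1.57 on ILMN_2617194 and 1.54 on ILMN_2886828) and Rarg (0.60 on ILMN_3132660). All 5 rest on 3 arrays of Nodal with SB431542, and Crabp1 passed the detection filter only through these arrays. Rbp4 passed that filter only through Nodal, Cripto and Cripto with SB431542, the groups in which it was high. The other tested Rarg probe (ILMN_2618068) was not called. The Rarg interaction lost its call when any one of 7 arrays was left out and under 6 other settings (adjusted p 0.0543 to 0.172). That of Rarb on ILMN_2886828 lost it with median centring (adjusted p = 0.0787), on BeadChips 1 to 4 (0.0835) and without replicate 1 of Nodal with SB431542 (0.0659). That of Rbp4 lost it without the BeadChip term (0.0569).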

How the results depend on the processing

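Cyp26a1 and Stra6 kept their directions for Nodal and Cripto against Media and for Cripto with SB431542 against SB431542 under the alternatives run; Nodal minus Media for Cyp26a1 was 2.65 on the deposited values and 5.72 on BeadChips 5 to 7, and Cripto with SB431542 minus SB431542 for Stra6 was -1.49 with median centring. The sign turned for Rarb in Cripto against Media with median centring, to 0.18 (ILMN_2617194) and 0.15 (ILMN_2886828), neither called either way. Median centring moved the median of all probes to 0.42 and 0.44 in Nodal and Cripto against Media. That median was 0.31 in Cripto with SB431542 against SB431542 and -0.32 in Nodal with SB431542 against Nodal. In the same order, the share of calls that were higher was 80.3, 76.5, 69.2 and 28.5%. With quantile normalisation the share was 51.4, 52.1, 51.2 and 47.3%. Fits on BeadChips 1 to 4 and 5 to 7 were chosen after seeing the data; no array of Nodal with SB431542 is on BeadChips 5 to 7, so its comparisons have no value there. No paired analysis was possible because the labels give no replicate numbers; those used here follow accession order. The BeadChips that groups share entered as a block instead. Values near the background, as for Rbp4 in Media, limit the sizes of changes, and the cause of the changes below was not tested except that fewer probes or arrays were used.

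The probes called were 10242 for Nodal and 11507 for Cripto against Media, 0 for SB431542 against Media, 675 and 11794 for the ligands Nodal and Cripto on top of SB431542, against SB431542 alone, 9673 for Nodal with SB431542 against Nodal, 1458 for Cripto with SB431542 against Cripto, 3768 for Nodal against Cripto, and 7755 and 100 for the interactions of Nodal and Cripto with SB431542. With 1 probe per gene they were 5727, 6421, 366 (Nodal with SB431542), 6521, 5338, 856, 2495, 4365 and 65. Nodal with SB431542 against SB431542 gave 146 with median centring, 366 without a detection filter, 8 without the BeadChip term and 1013 on BeadChips 1 to 4. Cripto with SB431542 against Cripto gave 619 with median centring, 270 without the BeadChip term, and 51 and 77 on BeadChips 1 to 4 and 5 to 7. Nodal against Cripto gave 1780, 1735, 1067 and 1323 under these 4. The interaction of Cripto gave 243 without background correction, 6 with median centring, 183 with an offset of 50, 257 on the deposited values, 61 without a filter, 169 with detection on at least 14 arrays, and 0 without the BeadChip term and on either set of BeadChips. Leaving out 1 array at a time gave 9425 to 11043, 10844 to 12045, 0, 0 to 1153, 10796 to 12371, 8058 to 10524, 396 to 2409, 2881 to 4459, 6541 to 9027 and 11 to 472 in the order of the first sentence of this paragraph.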
